A study of Mus musculus with 72 samples.

Results

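The calcineurin pathway was followed here through 9 genes: the calcineurin regulators Rcan1 and Rcan2, the calcineurin subunit genes Ppp3ca, Ppp3cb and Ppp3r1, and the transcription factor genes Nfatc1, Nfatc2, Nfatc3 and Nfatc4. They were chosen by name, as 9 of the 24237 genes counted, and each was read in all 72 libraries. RNA from mouse hearts had been sequenced after each heart was divided into its right atrium (called RA here), its left atrium (LA) and its ventricles (V), with 3 libraries for each combination of group, chamber and sex. The 4 groups were naïve Ahr+/+ mice, whose dams received corn oil, Ahr-/- mice, which lack the aryl hydrocarbon receptor and whose dams were untreated, and Ahr+/+ mice whose dams had received TCDD, the high-affinity ligand of that receptor, by gavage on 3 days of gestation at 0.1 µg/kg (low dose) or 1 µg/kg (high dose). All groups were on the C57BL/6J background, the null allele after 7 generations of backcrossing, and exposed offspring met TCDD only through the dam. By the methods, Ahr-/- mice had Ahr-/- dams and sires, and Ahr+/+ mice had Ahr+/+ ones. The mice were 10 months old by the study's methods and 9 months by the sample labels, and the days of gavage also differ between them. The treatment label names TCDD for every sample, so that naïve and Ahr-/- mice were taken as unexposed from the sample titles and the methods; the null allele was not limited to the heart. The methods name 3 mice per sex and group, so the RA, LA and V libraries of a group came from the same hearts, but the labels do not say which libraries share a heart. The comparisons of groups use a single chamber at a time, so by the methods their p-values rest on the spread between mice. The chamber comparisons have no term for the heart. Sample titles and methods do not give the litter, so exposed littermates may be counted as independent although the dam was treated.

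Calcineurin is a phosphatase switched on by calcium and calmodulin. Its catalytic subunit, encoded in the heart by Ppp3ca or Ppp3cb, works with the calcium-binding subunit encoded by Ppp3r1, and it removes phosphates from the NFAT proteins, which then enter the nucleus and drive transcription, in cardiomyocytes as a part of hypertrophic growth. The Rcan proteins bind calcineurin and restrain it, and a short transcript of Rcan1 from an internal start is itself an NFAT target, so that Rcan1 RNA is widely read as a marker of calcineurin activity in the heart.

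By levels per kilobase of coding sequence, as medians over the 72 libraries in CPM (each count over the total of its library, put on a common scale) per kilobase, Rcan2 was the most abundant of the 9 genes at 640. The calcium-binding subunit Ppp3r1 followed at 232. The catalytic subunit Ppp3ca had a level of 91.4 per kilobase, Rcan1 of 79.8 and the second catalytic subunit Ppp3cb of 50.4. The NFAT genes were lower, at 11.9 per kilobase for Nfatc3, 8.72 for Nfatc1, 5.47 for Nfatc2 and 1.34 for Nfatc4. Each gene was above the next in this order in at least 63 of the 72 libraries, except that Ppp3ca was above Rcan1 in only 42, and per kilobase of exon these 2 genes changed places. Counts were enough for each gene in every library, from 24 to 204 reads for Nfatc4, the lowest, to 5932 to 12804 for Rcan2.

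The sequences before the Rcan1 starts are shown because Rcan1 was the member called higher in the high-dose ventricle and because the deposited counts add both of its transcripts together. RefSeq lists a distal start and a start inside the gene, and the 250 bases before each (GRCm38.p6, minus strand, read 5′ to 3′) are given with GGAAA, the core letters of NFAT binding sites, and its complement TTTCC in capitals.
Rcan1 internal start, chr16:92400079-92400328: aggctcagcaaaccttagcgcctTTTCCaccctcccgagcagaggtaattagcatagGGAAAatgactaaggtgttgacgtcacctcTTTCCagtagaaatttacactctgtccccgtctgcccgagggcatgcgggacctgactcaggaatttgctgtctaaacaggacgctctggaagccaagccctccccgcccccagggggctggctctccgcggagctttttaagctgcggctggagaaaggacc
Rcan1 distal start, chr16:92466170-92466419: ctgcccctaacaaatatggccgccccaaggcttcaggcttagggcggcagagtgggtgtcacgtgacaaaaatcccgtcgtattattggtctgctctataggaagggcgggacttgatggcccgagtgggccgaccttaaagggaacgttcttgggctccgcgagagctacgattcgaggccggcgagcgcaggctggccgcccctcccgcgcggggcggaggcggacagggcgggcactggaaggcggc
The internal start had 3 matches on both strands together and the distal start 0. Of the 32851 mouse promoter windows of 300 bases (250 before and 50 after a start), 61.3% held GGAAA on either strand and 9.42% held it at least 3 times, which the internal Rcan1 window also did. The core of AHR binding sites, GCGTG on either strand, was absent from both Rcan1 windows and was present in 32.4% of all windows. Windows were available for 7 of the 9 members. Among the others, the window of Ppp3cb held 4 GGAAA matches, against 2.65% of all windows with at least 4, and that of Ppp3r1 held 0. A match describes the letters of the window only.

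Total counts ran from 11873417 to 28789382 per library. Ahr itself, the targeted gene, was lower in the Ahr-/- libraries (2.00 to 9.23 CPM, median 5.05, n = 18) than in the naïve ones (8.59 to 30.8 CPM, median 14.2, n = 18) but not absent, and the ranges overlapped. The chamber labels were compared with Myl4, the atrial myosin light chain, and Myl2, the ventricular one, and the sex labels with sex-linked genes. In 8 libraries labelled as atrium Myl4 was at 2.21 to 48.7 CPM, against 621 to 5196 CPM in the other 40, and in 5 labelled as ventricle it was at 675 to 3533 CPM, against 0.626 to 193 CPM in the other 19. Sex-linked genes went against the label in 8 libraries. In all, 17 libraries went against a label, 12 of the 24 numbered 49 to 72 and 5 of the 48 numbered 1 to 48. Among libraries 49 to 72 the same 3 labels, female RA, male LA and male V, were the ones that failed in each of the 4 groups. These genes do not tell LA from RA, so an exchange between the atria would not be seen, and the other atrial labels of libraries 49 to 72 are in doubt as well. Labels were kept, and the called changes of the members and the chamber comparisons are also given without these libraries. The female ventricle groups held none of them. The labels call the samples cardiomyocytes, but fibroblast markers (Pdgfra, Col1a1, Dcn and Tcf21) summed to 688 to 1486 CPM in the naïve and exposed ventricle libraries that did not go against a label.

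By library totals every high-dose library was above the naïve median for Rcan1, the calcineurin inhibitor, and below it for Ppp3r1, while the ranges of the groups overlapped for both. These 2 genes were the most one-sided of the 9 members at high dose. For these and later counts of this kind the share of all genes is not given. In the naïve libraries Rcan1 ran from 41.4 to 83.7 CPM with a median of 59.3 (mean 60.1 ± 9.50 SD, n = 18). In the high-dose libraries it ran from 64.6 to 218 CPM with a median of 94.1 (mean 99.6 ± 39.6 SD, n = 18). All 18 high-dose libraries were above the naïve median and 10 were above the highest naïve library. With TMM scaling, the scaling of the tests below, 16 of 18 were above the median and 10 above the highest. For Ppp3r1, 18 of 18 high-dose libraries were below the naïve median of 151 CPM and 8 below the lowest naïve library, and with TMM scaling 18 and 4. For Rcan1 the low-dose libraries ran from 46.6 to 91.5 CPM (median 66.8) and the Ahr-/- libraries from 47.7 to 124 CPM (median 67.0), with 13 and 16 of 18 above the naïve median. Without the libraries that went against a label the Rcan1 medians were 59.4 CPM in naïve (n = 14) and 94.9 CPM in high-dose libraries (n = 14). Libraries of a heart are not independent, and each of these groups comes from the hearts of 3 females and 3 males. The 2 highest high-dose values were 175 CPM in male LA library 25 and 218 CPM in male V library 41, and the other 16 high-dose libraries ran from 64.6 to 133 CPM with a median of 87.0. As these are bulk samples, fewer cells of a type and less RNA per cell cannot be told apart for any gene below.

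**Figure D1:**
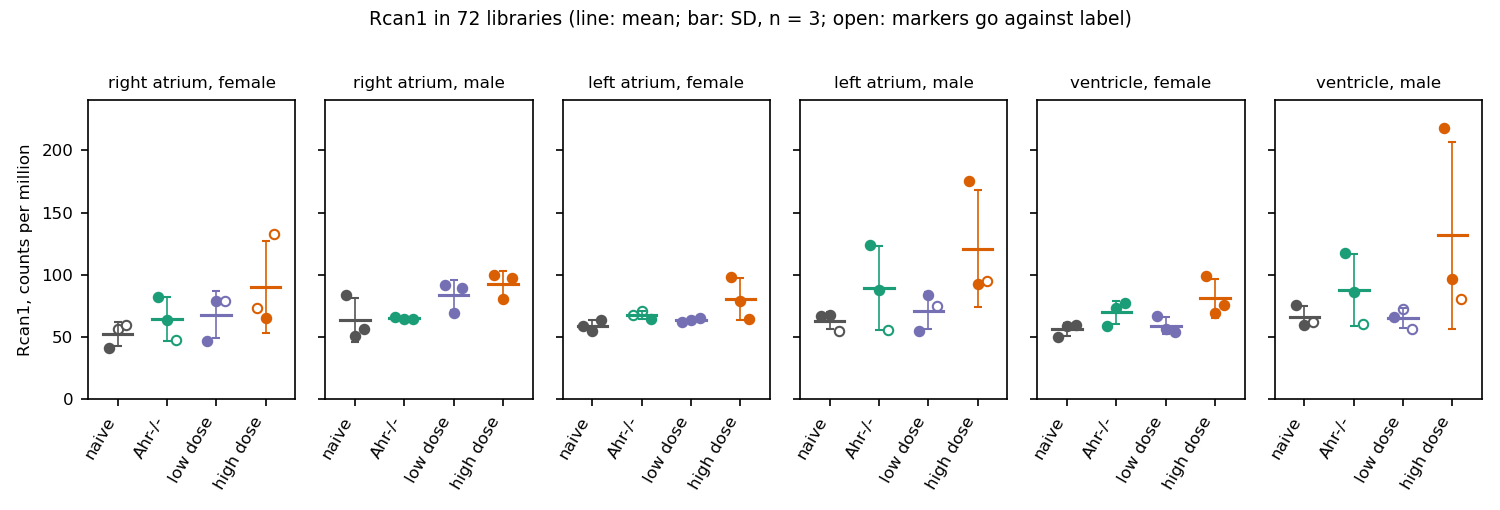
Rcan1 in CPM (vertical axis, linear from 0) in each of the 72 libraries, by labelled chamber and sex (panels) and group (horizontal axis); points are libraries, lines the mean of 3 and bars the SD, and open points are libraries whose chamber or sex-linked genes go against their label. The high-dose libraries run from 64.6 to 218 CPM and the naïve libraries from 41.4 to 83.7 CPM.

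The Rcan1 difference between high-dose and naïve mice was of like size in the chambers, and by edgeR it passed the test only in V. With the sexes joined (6 against 6 libraries, edgeR's quasi-likelihood test with a sex term and Benjamini-Hochberg adjustment over all genes), the log2 fold change of Rcan1 was 0.75 ± 0.24 (SE) in RA (adjusted p = 0.513), 0.70 ± 0.19 in LA (adjusted p = 0.109) and 0.88 ± 0.25 in V (adjusted p = 0.0365). DESeq2 also called Rcan1 in LA. In these edgeR fits 13.9% of all genes were called in V, 0.0752% in RA and 0 in LA. Whether the Rcan1 change differed between chambers was not tested. In female RA the high-dose libraries were at 73.6, 65.0 and 133 CPM and the naïve ones at 41.4, 56.4 and 59.5 CPM, so that the groups did not overlap (4.34% of all genes were above without overlap there), but 4 of these 6 libraries went against a label, that at 133 CPM among them, and 1 remains in each group without them (65.0 CPM in high-dose and 41.4 CPM in naïve). With TMM scaling the female RA groups overlapped. In male LA the high-dose libraries were at 175, 93.0 and 95.2 CPM and the naïve ones at 66.8, 67.8 and 55.2 CPM, again without overlap (7.30% of all genes), with a log2 fold change of 1.00 ± 0.28 (edgeR adjusted p = 0.369). In male V the high-dose libraries were at 218, 96.8 and 80.4 CPM against 75.9, 59.7 and 61.8 CPM in the naïve ones, without overlap by library totals (6.79% of all genes) and with overlap by TMM scaling, a log2 fold change of 1.04 ± 0.45 (edgeR adjusted p = 0.539). Without library 41 the joined-sex change of Rcan1 in V was 0.56, the lowest of the 12 leave-one-out values, and Rcan1 lost its call when any of 9 of the 12 libraries was left out, with edgeR adjusted p from 0.00942 to 0.0825. With a GC trend removed from each library, as described further on, it was 0.62 and not called (edgeR adjusted p = 0.174). Without the libraries that went against a label the joined change of Rcan1 was 0.90 in V (edgeR adjusted p = 0.0131), 0.62 in RA (0.748) and 0.66 in LA (0.157), that in male LA was 1.02 (0.270), and female RA could not be fitted.

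Genes of the circadian clock differed between the same groups. Arntl, the clock activator also called Bmal1, ran from 5.68 to 34.8 CPM (median 17.2) in the 18 high-dose libraries and from 0.873 to 19.4 CPM (median 2.78) in the 18 naïve ones. Per2, a clock repressor, ran from 5.06 to 25.8 CPM (median 13.6) and from 15.0 to 84.4 CPM (median 43.9). Naïve libraries 52, 53 and 54 stood apart from the other 15 naïve ones in both genes, with Arntl at 14.6, 19.4 and 11.5 CPM (at most 9.08 in the others) and Per2 at 16.1, 15.6 and 15.0 CPM (at least 28.3 in the others), and their Rcan1 was at 63.7, 61.8 and 59.7 CPM. Library 54 is 1 of the 3 naïve female V libraries of the comparisons below. Library 53 is labelled as 1 of the 3 naïve male V libraries, but its Myl4 and sex-linked genes went against that label. The sex-linked genes of libraries 52, 53 and 54 were all those of females. The labels do not say whether these libraries share a heart, so they may not be independent. Without library 54 the Rcan1 change in high-dose female V was 0.82 (edgeR adjusted p = 0.0105). In high-dose RA with the sexes joined, where 11 of 14633 genes were called (0.0752%), Arntl rose by a log2 fold change of 2.93 and Per2 fell by 1.76 on the log2 scale (edgeR adjusted p = 0.00363 and 0.0222). In high-dose male V, where Rcan1 was highest, immediate early genes summed to 140 to 227 CPM against 52.0 to 116 CPM in naïve male V, where each group holds 1 library that went against its label; without these the sums were 140 and 227 CPM against 52.0 and 54.1 CPM. In female V, where Rcan1 was called, they summed to 36.1 to 56.7 CPM in high-dose and 30.5 to 55.3 CPM in naïve libraries. In male LA they summed to 110 to 386 CPM in high-dose libraries, highest in library 25, and to 78.4 to 94.2 CPM in naïve ones. Each of these male LA groups holds 1 library that went against its label. In male RA and in female RA and LA the sums of the 2 groups overlapped. The part of the clock and immediate early genes in the Rcan1 difference was not tested.

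Each exposed or knockout group was then compared with the naïve libraries of the same chamber and sex (18 comparisons of 3 against 3). These comparisons address whether RNA levels in the adult heart differ with Ahr genotype or with prenatal TCDD. The Ahr-/- mice also differ from naïve ones in the genotype of the dam, and their dams had no corn oil gavage. These differences cannot be told apart from the genotype of the mouse. The 9 members passed the count filter in every comparison. Only high-dose female V had called members (6 of 9 at an adjusted p under 0.05 by edgeR), and there 23.7% of all 14006 genes were called. In the other 17 comparisons 0 of 153 member values were called by edgeR, 16 had an unadjusted p under 0.05 (10.5%, beside 8.16% of all gene values), and DESeq2 called 1, Nfatc3 in low-dose male V, where 2 of the 3 low-dose libraries went against a label. The share of all genes called in those 17 comparisons was 0 to 0.0216%. All comparisons within a chamber and sex share their naïve libraries.

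**Figure D2:**
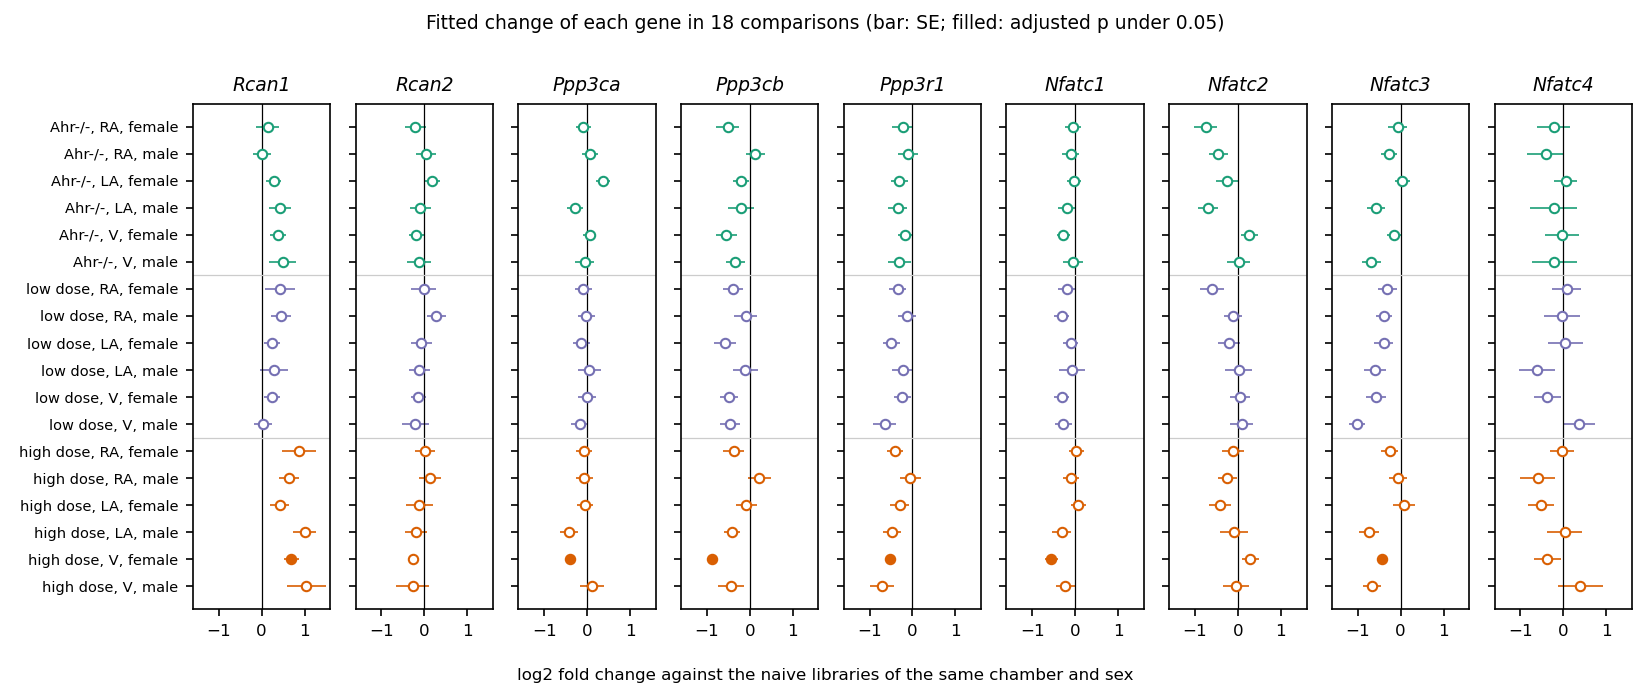
Log2 fold change (horizontal axis) of each gene (panels) in the 18 comparisons with naïve libraries (vertical axis, by group, chamber and sex, 3 against 3 libraries); bars are SE and filled points have an adjusted p under 0.05. The 6 filled points are in the high-dose female ventricle, with Rcan1 to the right of 0 and Ppp3ca, Ppp3cb, Ppp3r1, Nfatc1 and Nfatc3 to the left.

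In the high-dose female ventricle Rcan1 rose while the genes of the phosphatase and those of Nfatc1 and Nfatc3 fell. The median log2 fold change of the 9 members was -0.40, and that of all genes tested was 0.01. The high-dose groups did not overlap the naïve group for 8 of the 9 members, 1 above and 7 below, where 11.7% of all genes were above and 25.1% below. These CPM values rest on library totals, and with TMM scaling, added after seeing the data, 7 members did not overlap, Nfatc4 being the one that then did. Positions are those of RefSeq on GRCm38.p6, and values are given in the order of libraries 35, 36 and 54 for naïve and 43, 44 and 66 for high dose.

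Rcan1 lies on chromosome 16 (92391951 to 92466169) and Rcan2 on chromosome 17 (43801352 to 44039516). Rcan1 was at 50.5, 59.0 and 59.7 CPM in naïve and 98.7, 69.3 and 75.5 CPM in high-dose female V. It rose 1.62-fold, a log2 fold change of 0.70 ± 0.17 (SE, edgeR adjusted p = 0.0101). Rcan2, the second regulator, was at 685, 657 and 557 CPM in naïve and 513, 527 and 376 CPM in high-dose libraries, which did not overlap, but its log2 fold change of -0.25 ± 0.12 was not called (edgeR adjusted p = 0.131).

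Ppp3cb lies on chromosome 14 (20499364 to 20546573), Ppp3ca on chromosome 3 (136669714 to 136937727) and Ppp3r1 on chromosome 11 (17159298 to 17200380). The catalytic subunit gene Ppp3cb had the largest change of the members. It was at 146, 129 and 123 CPM in naïve and 73.2, 75.6 and 46.4 CPM in high-dose female V, 1.83-fold lower (log2 fold change -0.87 ± 0.13, edgeR adjusted p = 0.00119). The other catalytic subunit gene, Ppp3ca, was at 152, 143 and 120 CPM against 94.5, 110 and 75.6 CPM, a log2 fold change of -0.40 ± 0.12 (edgeR adjusted p = 0.0278). The calcium-binding subunit gene Ppp3r1 was at 161, 172 and 129 CPM against 99.3, 117 and 72.1 CPM, a log2 fold change of -0.51 ± 0.13 (edgeR adjusted p = 0.0145). For each of the 3 subunit genes the highest high-dose library was below the lowest naïve one, and the lowest library of each group was the one from libraries 49 to 72, naïve library 54 and high-dose library 66. With a term for the library series (1 to 48 or 49 to 72) the same 6 members were called, with edgeR adjusted p from 0.00144 to 0.0284, beside 24.5% of all genes.

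Nfatc1 lies on chromosome 18 (80606205 to 80713071), Nfatc2 on chromosome 2 (168476410 to 168601657), Nfatc3 on chromosome 8 (106058818 to 106130537) and Nfatc4 on chromosome 14 (55824795 to 55833943). Among the transcription factors, Nfatc1 was at 27.8, 30.4 and 25.8 CPM in naïve and at 16.7, 17.0 and 16.4 CPM in high-dose female V (log2 fold change -0.56 ± 0.15, edgeR adjusted p = 0.0182). By library totals its high-dose values were close together, and with TMM scaling they ran from 18.2 to 22.3, against 26.6 to 30.2 in naïve. Nfatc3 was at 57.7, 51.7 and 45.1 CPM against 39.6, 38.1 and 25.1 CPM (log2 fold change -0.42 ± 0.14, edgeR adjusted p = 0.0390). Nfatc2 overlapped between the groups, at 20.7, 22.1 and 14.1 CPM against 24.1, 16.5 and 19.8 CPM (edgeR adjusted p = 0.301). Nfatc4, the NFAT gene with the lowest level, was at 3.48, 4.71 and 2.59 CPM against 2.50, 2.33 and 2.40 CPM and was not called (edgeR adjusted p = 0.430).

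Only the call of Ppp3cb held when each of the 6 libraries was left out in turn (edgeR adjusted p at most 0.00831). Without naïve library 35 or 36 only 2 members were called, and without library 66, 43 or 54 there were 3, 4 and 5. Rcan1 lost its call without library 35 (adjusted p = 0.0620), Nfatc1 without 36 or 43, Ppp3r1 without 35, 36 or 66, Ppp3ca without 35, 36, 43 or 66, and Nfatc3 without 35, 36, 54 or 66. With all 4 groups of female V in 1 fit, 0 members were called (4.96% of all genes), with edgeR adjusted p of 0.0547 for Ppp3cb, 0.0557 for Rcan1 and 0.0626 for Nfatc1, and the fold changes stayed within 0.01 of those above on the log2 scale. Within libraries 1 to 48 (2 against 2) Rcan1, Ppp3cb, Ppp3r1 and Nfatc1 were called by edgeR, beside 12.6% of all genes, and in libraries 49 to 72 each group has 1 library.

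**Figure D3:**
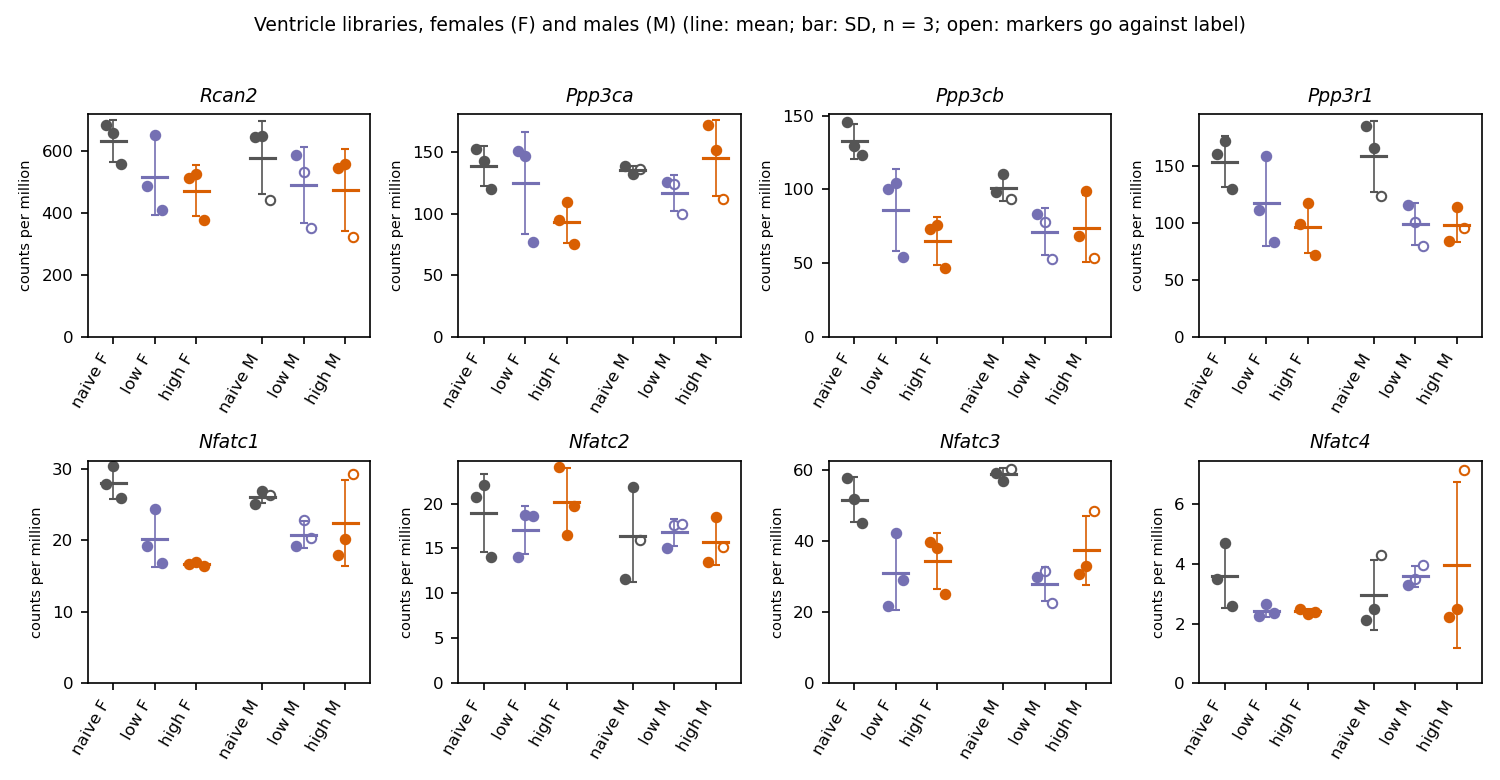
CPM values (vertical axes, linear from 0) of 8 genes in the ventricle libraries of naïve, low-dose and high-dose females (F) and males (M); points are libraries, lines the mean of 3, bars the SD, and open points libraries whose chamber or sex-linked genes go against their label. In females the high-dose points of Ppp3ca, Ppp3cb, Ppp3r1, Nfatc1 and Nfatc3 lie below all naïve points, and in males those of Ppp3r1 and Nfatc3 do, Ppp3r1 by library totals only.

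Changes of genes in the high-dose female ventricle moved with the base composition of their transcripts. The median log2 fold change was -0.30 over the genes with the lowest GC content (under 46.5% in the longest transcript), 0.00 over the middle tertile and 0.30 over the tertile above 52.8%. Ppp3cb (39.8% GC), Ppp3r1 (41.4%), Ppp3ca (45.4%), Nfatc3 (45.9%) and Rcan2 (45.9%) are in the low tertile, and Nfatc1 (53.7%), Rcan1 (54.5%), Nfatc2 (55.3%) and Nfatc4 (58.8%) in the high one. With a GC trend removed from each library, an alternative added after seeing the data, Ppp3cb (log2 fold change -0.45, edgeR adjusted p = 0.0174) and Nfatc1 (-0.77, edgeR adjusted p = 0.00425) were called, beside 13.6% of all genes. Rcan1 was then at 0.45 (edgeR adjusted p = 0.0644), Ppp3r1 at -0.16 (0.381), Ppp3ca at -0.22 (0.189) and Nfatc3 at -0.27 (0.182). Nfatc1 fell while the median of its GC tertile was above 0.

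Changes there moved with transcript length too, with a median log2 fold change of 0.16 over the tertile under 2596 bases, which holds Rcan1 (2324), of 0.03 over the middle one and of -0.13 over the tertile above 4265 bases, which holds Ppp3ca (4758), Nfatc1 (4797), Nfatc3 (5984) and Nfatc2 (6828). With a length trend removed, also added after seeing the data, Rcan1 (0.60, edgeR adjusted p = 0.0205), Ppp3cb (-0.87, 0.00123), Ppp3r1 (-0.58, 0.00873) and Nfatc1 (-0.49, 0.0392) were called, beside 20.9% of all genes. Ppp3ca was then at -0.33 (edgeR adjusted p = 0.0641) and Nfatc3 at -0.28 (0.158). The part of GC content and length in these changes was not tested further.

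**Figure D4:**
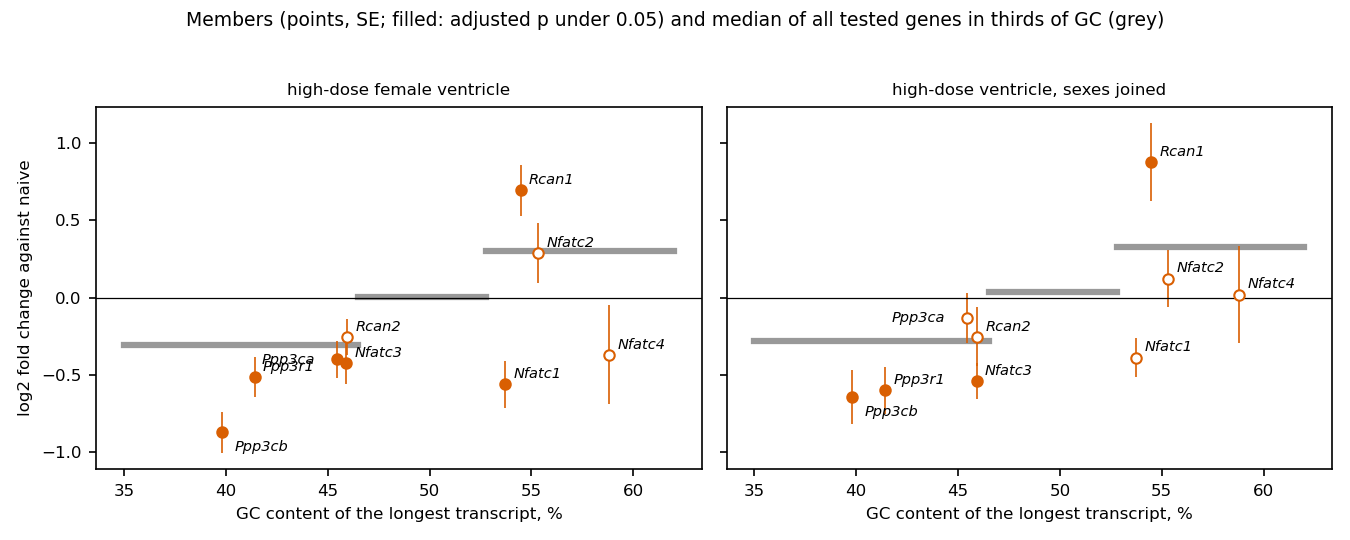
Log2 fold change against naïve (vertical axis) of the 9 genes by GC content of the longest transcript in percent (horizontal axis), in the high-dose female ventricle and with the sexes joined; bars are SE, filled points have an adjusted p under 0.05, and grey lines are the median of all tested genes in each GC tertile, drawn from 35% to 62%. In the female ventricle the grey lines rise from -0.30 to 0.30, and Nfatc1, at -0.56, lies below the line of its tertile.

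Marker genes of cell types also differed in these 6 libraries. The cardiomyocyte genes Myh6, Tnnt2 and Actc1 summed to 32146 to 34748 CPM in naïve and 49084 to 65670 CPM in high-dose female V, without overlap. In low-dose female V they summed to 37433 to 60816 CPM, also above all naïve values. Fibroblast markers summed to 880 to 1486 CPM in naïve and 762 to 854 CPM in high-dose libraries, and of the 4 only Dcn was called (edgeR log2 fold change -0.47, adjusted p = 0.0379). Endothelial markers (Pecam1, Cdh5, Kdr and Tek) summed to 632 to 744 CPM and 620 to 788 CPM. Atrial markers (Myl4, Myl7 and Sln) summed to 5.18 to 343 CPM and 3.05 to 27.1 CPM. Their part in the changes of the members was not tested.

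With the sexes joined, the ventricle was the only chamber with members called by edgeR. In high-dose V, 4 of 9 members were called by edgeR, beside 13.9% of all 13955 genes. These were Rcan1 (0.88, above), Nfatc3 with a log2 fold change of -0.54 ± 0.12 (adjusted p = 0.0140), Ppp3r1 with -0.60 ± 0.15 (adjusted p = 0.0234) and Ppp3cb with -0.65 ± 0.18 (adjusted p = 0.0312). Ppp3r1 did not overlap between the 6 high-dose and 6 naïve libraries by library totals (5.28% of all genes were below without overlap), and with TMM scaling it did. In males it was at 84.1, 114 and 95.6 CPM against 185, 166 and 124 CPM. In low-dose V, 2 of 9 were called, beside 13.7% of all 13911 genes: Nfatc3 with -0.80 ± 0.15 (edgeR adjusted p = 0.0102) and Ppp3cb with -0.47 ± 0.14 (edgeR adjusted p = 0.0421). These 2 comparisons share their naïve libraries.

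Nfatc3, which encodes one of the cardiac NFAT factors, kept its call in both joined comparisons whichever of the 12 libraries was left out (edgeR adjusted p at most 0.0403 in high-dose and 0.0387 in low-dose V). In male V it was at 59.1, 56.9 and 60.2 CPM in naïve, 29.8, 31.6 and 22.6 CPM in low-dose and 30.7, 32.8 and 48.3 CPM in high-dose libraries, below all naïve values in both (15.7% of all genes at low dose and 10.0% at high dose). In Ahr-/- male V it was at 25.8, 32.3 and 50.8 CPM (the last against its label), also below all naïve values, and not called. In low-dose female V it was at 21.6, 42.0 and 29.0 CPM against 57.7, 51.7 and 45.1 CPM in naïve, again without overlap (17.6% of all genes were below). With the GC trend removed its log2 fold change was -0.65 in low-dose V (edgeR adjusted p = 0.0270) and -0.37 in high-dose V (edgeR adjusted p = 0.0811). Without the libraries that went against a label it was -0.70 in low-dose V (edgeR adjusted p = 0.0445, beside 6.14% of all genes called) and -0.61 in high-dose V (edgeR adjusted p = 0.00461, beside 25.9%). In male V alone, where each of the naïve and high-dose groups holds 1 such library, the high-dose changes without them were -0.84 for Nfatc3 and -0.80 for Ppp3r1 (edgeR adjusted p = 0.0309 and 0.0426) and 1.26 for Rcan1 (0.0603), beside 15.9% of all genes called. In low-dose male V libraries 46 and 71 (31.6 and 22.6 CPM) went against a label, which leaves 1 library, and without them and naïve library 53 the Nfatc3 change was -0.98 (edgeR adjusted p = 0.242, where the lone library is assumed to vary like the 2 naïve ones). Over the whole series Nfatc3 was below the naïve median of 51.6 CPM in 18 of 18 low-dose, 16 of 18 high-dose and 15 of 18 Ahr-/- libraries, and with TMM scaling in 18, 17 and 15.

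The other joined calls were less even. Ppp3cb was called in 5 of the 12 leave-one-out fits of high-dose V and in 3 of 12 of low-dose V, with edgeR adjusted p up to 0.0755 and 0.0882. Ppp3r1 was called in 7 of 12 of high-dose V, with edgeR adjusted p up to 0.0577. Without the libraries that went against a label Ppp3cb was at -0.66 and Ppp3r1 at -0.65 in high-dose V (edgeR adjusted p = 0.00737 and 0.00405), and Ppp3cb at -0.45 in low-dose V (0.0939). With the GC trend removed Ppp3cb was at -0.23 in high-dose V (edgeR adjusted p = 0.456) and at -0.13 in low-dose V (0.531), and Ppp3r1 at -0.23 in high-dose V (0.319). In that fit, where 2.38% of all genes were called in high-dose and 4.40% in low-dose V, Nfatc1 was called in both, with log2 fold changes of -0.60 (edgeR adjusted p = 0.0380) and -0.47 (0.0332), against -0.39 (0.0597) and -0.30 (0.0752) without the correction.

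Whether the sexes differed was tested as an interaction in each chamber and group. Of 81 member values 0 were called by edgeR and 0 by DESeq2, and 3 had an unadjusted p under 0.05 (3.70%, beside 2.53% of all gene values), with 0 of all genes called. In V the high-dose change of Ppp3ca was 0.55 ± 0.30 higher in males than in females on the log2 scale (edgeR adjusted p = 0.952), with 172, 151 and 112 CPM in high-dose against 139, 132 and 136 CPM in naïve male V. Without the libraries that went against a label it was 0.73 ± 0.21 and was called (edgeR adjusted p = 0.0446), beside 8.03% of all genes.

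In the Ahr-/- hearts 0 members were called by edgeR or DESeq2 in any chamber. Rcan1 had joined-sex log2 fold changes of 0.08 ± 0.17 in RA, 0.33 ± 0.15 in LA and 0.44 ± 0.19 in V (edgeR adjusted p from 0.305 to 0.960). Nfatc2, the T cell NFAT gene also present in heart, was at -0.60 ± 0.16 in RA and -0.49 ± 0.17 in LA (edgeR adjusted p = 0.363 and 0.246) and at 0.14 ± 0.17 in V, and without the libraries that went against a label it was at -0.59, -0.60 and 0.12. Over all chambers Nfatc2 ran from 10.1 to 24.0 CPM in Ahr-/- and from 11.6 to 28.4 CPM in naïve libraries, and 16 of 18 Ahr-/-, 18 of 18 low-dose and 16 of 18 high-dose libraries were below the naïve median of 20.4 CPM, and with TMM scaling 15, 12 and 13. Within libraries 1 to 48 the Nfatc2 mean was 15.7 CPM in Ahr-/- and 22.0 CPM in naïve, and within libraries 49 to 72 it was 16.6 and 15.2 CPM, the other way. Ppp3cb in V was at -0.44 ± 0.17 (edgeR adjusted p = 0.353), and in females it was called when Ahr-/- library 39 was left out. In the 7 joined comparisons without a member called by edgeR, where DESeq2 called 1, Rcan1 in high-dose LA, 14 of 63 member values had an unadjusted p under 0.05 (22.2%), where 12.6% of all gene values did. The share of all genes called in the joined Ahr-/- comparisons was 0 in RA, 0.0136% in LA and 0.0286% in V.

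Of 44 further genes of the pathway, listed by function with earlier results of these data known, 42 were tested. In high-dose female V 10 were called, 5 higher and 5 lower, with a median log2 fold change of -0.10. That is about the share of all genes called there, 23.7%. Pathway calls were fewer with the GC trend removed and with all 4 groups in 1 fit, and the genes named below are not followed in those fits. Among regulators of calcineurin, 3 of 15 rose and 0 fell, where 1713 of all 14006 genes rose and 1600 fell. Calm3, a calmodulin gene, rose by a log2 fold change of 1.12 ± 0.18 (edgeR adjusted p = 0.00188) and Csrp3, the muscle LIM protein of the Z-disc, by 0.70 ± 0.15 (0.00548). Calm3 was at 93.6 to 123 CPM in naïve and 158 to 235 CPM in high-dose female V. Among kinases that phosphorylate NFAT, Gsk3b fell by 0.70 on the log2 scale (edgeR adjusted p = 0.00154) and Dyrk1a by 0.48 (0.0106), and 1 of the 9 kinases rose. Gsk3b was at 186 to 208 CPM in naïve and 93.97 to 117 CPM in high-dose female V, without overlap. Of NFAT partners and targets, Mef2a fell by 0.56, Mef2c by 0.53 and Nfat5, an NFAT relative that calcineurin does not control, by 0.50 on the log2 scale (edgeR adjusted p = 0.00967, 0.0183 and 0.0197), and the slow myosin gene Myh7 rose by 0.85 (0.00827). Of 8 calcium entry genes 0 were called by edgeR.

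In the joined comparisons 9 of the 42 pathway genes were called by edgeR in high-dose V, beside 13.9% of all genes, and 8 in low-dose V, beside 13.7%. In high-dose V, Calm3 rose by 0.86, Akap5, a scaffold that anchors calcineurin, by 1.42 and the casein kinase gene Csnk1d by 0.38. Gsk3b (-0.57), Dyrk1a (-0.51), Mef2a (-0.65), Mef2c (-0.45) and the channel gene Trpc1 (-0.89) fell, with edgeR adjusted p from 0.0103 to 0.0410 for these 8. In low-dose V, Calm3 rose by 0.71, Akap5 by 1.30, Fkbp1a, which encodes the immunophilin that binds tacrolimus, by 0.52 and Cib1, a calcium-binding protein, by 0.51, and Gsk3b (-0.61), Dyrk1a (-0.54), Nfat5 (-0.72) and Trpc1 (-0.83) fell, with edgeR adjusted p from 0.00996 to 0.0491. Without the libraries that went against a label, 5 pathway genes rose and 8 fell in high-dose V, beside 25.9% of all genes called, and 1 rose and 2 fell in low-dose V, beside 6.14%. With the GC trend removed 2.38% of all genes were called in high-dose and 4.40% in low-dose V. The pathway calls of those fits are not given here.

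Chambers were compared in the 18 naïve libraries, 6 per chamber, with a sex term. By the labels 0 of 27 member values were called by edgeR or DESeq2, 6 had an unadjusted p under 0.05 (22.2%, beside 10.6% of all gene values), and the share of all genes called was 0 to 0.00671%. Rcan2 ran from 399 to 578 CPM in RA, 463 to 624.9 CPM in LA and 442 to 685 CPM in V (medians 495, 494 and 647 CPM). Ppp3cb ran from 63.2 to 125 CPM in RA, 83.6 to 113 CPM in LA and 93.5 to 146 CPM in V, and Ppp3r1 from 98.4 to 157 CPM, 119 to 167 CPM and 124 to 185 CPM. In naïve V the lowest Rcan2, Ppp3cb and Ppp3r1 values were those of library 53, the male V library in which Myl4 and the sex-linked genes went against the label.

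Without the 4 naïve libraries that went against a label, Rcan2 and Ppp3cb were higher in V than in either atrium, and Ppp3r1 was higher than in RA. Ppp3ca was called in neither comparison, and its mean was 137 CPM in V, 158 CPM in LA and 151 CPM in RA. Against RA, Rcan2 was higher by a log2 fold change of 0.62 ± 0.15 (edgeR adjusted p = 0.0105), Ppp3cb by 0.68 ± 0.17 (0.0117) and Ppp3r1 by 0.53 ± 0.16 (0.0279), beside 21.3% of all genes called. Against LA, Rcan2 was higher by 0.48 ± 0.14 (edgeR adjusted p = 0.0297) and Ppp3cb by 0.51 ± 0.15 (0.0366), beside 16.0% of all genes. With all 72 libraries as labelled, 3 members were called between V and RA (Nfatc2, Ppp3r1 and Rcan2, beside 33.3% of all genes) and 2 between V and LA (Ppp3r1 and Rcan2, beside 19.7%). Nfatc2 was then higher in V than in RA by 0.24 (edgeR adjusted p = 0.0379), against -0.15 without a call in the naïve libraries alone. With the 55 libraries of all groups in which no such gene went against the label, an alternative added after seeing the data, 7 members differed between V and RA and 6 between V and LA by edgeR, beside 54.1% and 51.5% of all genes. In that fit Rcan2 was 0.44 ± 0.08 higher in V than in RA (adjusted p = 1.9e-05) and Nfatc4 0.54 ± 0.14 lower (adjusted p = 0.00135). Rcan1 was 0.52 ± 0.12 higher in V than in RA and 0.27 ± 0.11 higher than in LA (edgeR adjusted p = 0.000153 and 0.0364) with the TMM scaling and group terms of the fit, while by library totals its median in these libraries was 69.3 CPM in V, 66.2 CPM in LA and 68.0 CPM in RA (means 80.1, 79.3 and 71.8). LA and RA had 0 called members in each of these fits. Between them 0 of all genes were called in the naïve libraries, with or without those against a label, and in the 55 libraries.

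**Figure D5:**
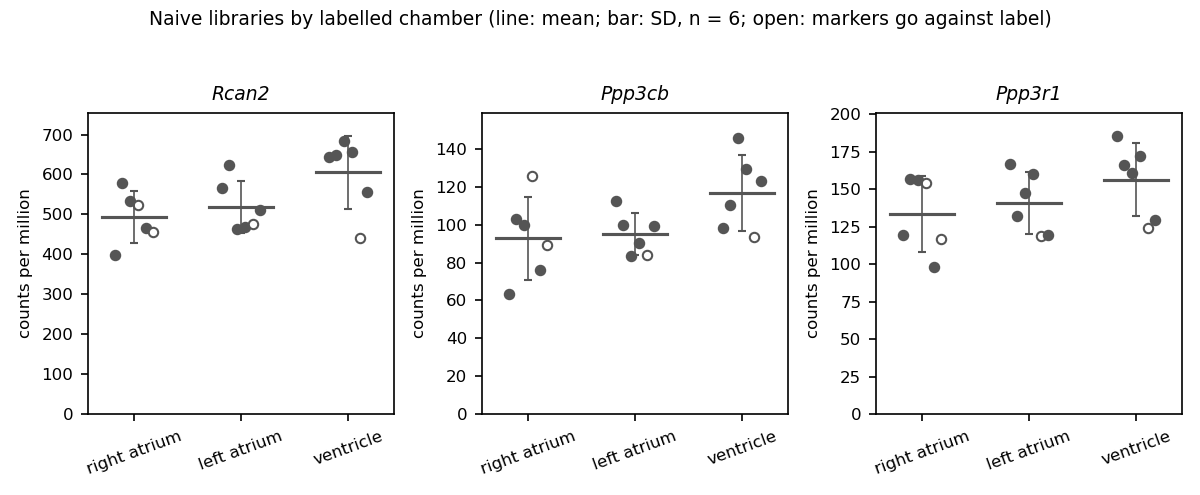
Rcan2, Ppp3cb and Ppp3r1 in CPM (vertical axes, linear from 0) in the 18 naïve libraries by labelled chamber (horizontal axis); points are libraries, lines the mean of 6, bars the SD, and open points the 4 libraries whose chamber or sex-linked genes go against their label. For Rcan2 the filled ventricle points lie between 557 and 685 CPM and the open one at 442 CPM.

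The genes whose log2 CPM was most like that of each member over the 72 libraries, which share hearts, depth and labels in doubt, were listed among 16688 genes by Pearson's r as a description. For Ppp3cb these were Tpp2, Eif4g2 and Cse1l (r of 0.92, 0.92 and 0.90), for Ppp3r1 Ppp1cb, Snx13 and Ubr3 (0.90, 0.90 and 0.89) and for Rcan2 Psme4 and Pdlim5 (0.91 and 0.90). For Rcan1 they were Twf2, 2310022A10Rik and Pdlim1 (0.81, 0.77 and 0.76). The genes most like the NFAT members were Med13, Ubn2 and Bach1 for Nfatc3 (0.78, 0.77 and 0.77), Fat1, Reck and Mxra8 for Nfatc4 (0.76, 0.75 and 0.75), Avl9, Man1a2 and Cand1 for Nfatc1 (0.73, 0.72 and 0.72) and Erc1, Trak1 and Fsd2 for Nfatc2 (0.72, 0.72 and 0.71). Ppp3ca was closest to a gene without a symbol (0.74), Degs1 (0.73) and Ctbp2 (0.72). Among the members themselves the highest r was that of Ppp3cb with Ppp3r1 (0.79) and the lowest that of Nfatc4 with Rcan2 (-0.53), and Rcan1 had an r of -0.51 with Nfatc1.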

How the data were processed

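RNA of right atrium, left atrium and ventricle was measured in 72 libraries (poly-A selected, single reads of 50 bases). The deposited values are raw counts per gene: per the labels and the study's methods, the authors demultiplexed with CASAVA 1.8, aligned with TopHat to mm10 and counted reads on coding regions with Bioconductor packages, without normalization; the annotation release and strand handling are not given in the sources used here. Entrez identifiers were matched to symbols by RefSeq. The members and gene lists were chosen with earlier results of these data known.

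CPM values are counts over the library total. Comparisons used edgeR 4.0.16 (R 4.3.3; genes kept by filterByExpr at a count of 10 and a total of 15, scaled by TMM and fitted by robust quasi-likelihood, Benjamini-Hochberg adjustment over all genes tested, called under 0.05). The study's methods name the negative-binomial test of DESeq. Samples were grouped by labels; sexes were joined with a sex term, and chambers compared in naïve libraries. Fold changes are log2 with SE. Alternatives were DESeq2 1.42.0, other scalings, no filter, library series, libraries not against their labels, other fits, and removal of length and GC trends (97.6% of genes had a value). Each library was left out in turn. Fits were tested on simulated data. Genes named were the 9 members, pathway genes at adjusted p under 0.05 (at most 8 per comparison by smallest p) and 3 like genes per member, of which 1 is not reported here.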

Additional observations from a re-analysis of the deposited data

Results flagged for a closer look

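Of 108 sets of 6 libraries (each member in each group and chamber, sexes together), 7 had a highest or lowest library set apart from the others by more than Dixon's 95% limit, and chance gives about 1 in 20. For Rcan1 these were male V library 41 of the high-dose group at 218 CPM (next highest 98.7) and male LA library 25 of that group at 175 CPM (next 98.0). For Nfatc1 and Nfatc4 it was high-dose male V library 65, at 29.3 CPM (next 20.1) and 7.16 CPM (next 2.50), a library in which Myl4 and the sex-linked genes went against the label. In Ahr-/- RA, Ppp3ca was at 172 CPM in male library 6 (next 152), and female library 7 was lowest for Ppp3cb at 56.5 CPM (next 83.9) and for Rcan2 at 367 CPM (next 475). Libraries 25 and 41 are 16 numbers apart, as are male Ahr-/- libraries 5, 21 and 37 of RA, LA and V, whose Y-linked sums were 95.03, 76.5 and 93.1 CPM against 245, 238 and 210.0 CPM in libraries 6, 22 and 38. Library 9, the male RA library 16 numbers before library 25, had Rcan1 at 99.8 CPM. The labels do not say whether such libraries share a heart, so libraries 25 and 41 may not be independent.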

How the results depend on the processing

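The 6 calls of the group comparisons were 0 with all 4 groups in one fit and 2 with the GC trend removed, and ranged from 2 to 7 when single libraries were left out. The 6 joined-sex calls were 3 with the GC trend removed, of which 1, Nfatc3 in low-dose V, was among the 6 and the other 2 were Nfatc1 in both doses, and ranged from 2 to 7 without single libraries. The 0 chamber calls became 5 without libraries against their label, 5 with all 72 libraries and 13 with the 55 that do not go against one, and were 0 to 1 without single libraries. The 0 interaction calls became 1 without libraries against their label and stayed at 0 without single libraries. The 10 pathway calls became 16 with DESeq2, 26 in libraries 1 to 48, 17 without libraries against their label, 3 with 4 groups in one fit and 5 with the GC trend removed, and ranged from 5 to 14 without single libraries. Nfatc2, at -0.15 between V and RA and -0.11 between V and LA with no call, was called with the other sign at 0.24 with all 72 libraries (V against RA) and at 0.30 and 0.33 with those 55. The causes were not tested. High-dose female RA could not be fitted without libraries against their label. No paired analysis was possible because the library numbers in the labels run from 1 to 72 and are not shared between groups, and no label says which libraries share a heart. Likeness of libraries 16 numbers apart among 1 to 48 was not used as a pairing. Single members kept their side of the threshold in 2519 values under the other settings, where 2353 kept their sign and 166 without a call turned it, and passed the threshold newly in 36, lost it in 25 and were called with the other sign in 3. Depth was lowest for Nfatc4, with as few as 24 reads.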
